A study of Mus musculus with 3 samples.

Results

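A set of 916 promoter regions of Min6 cells, a mouse insulinoma line used as a model of the β cell, was read mainly in the chromatin precipitated after infection with a control virus. They were chosen by read number from a deposited table that lists 542768 regions on chromosomes 1 to 19 and X, of which 41743 are annotated as promoters. A member is a promoter region with at least 5 control virus reads, at most 2 Ets-1 virus reads and at most 4 input reads. These read numbers, and every difference in reads that follows from them, are the rule and are given as description.

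For ChIP-seq, chromatin was pulled down with an anti-Ets-1 antibody and read from both ends of each fragment. One library came from cells given 24 h of infection by an Ets-1 overexpressing adenovirus and is called the Ets-1 virus library. Another came from cells infected for 24 h with an adenovirus that carries GFP and is called the control virus library, so that its precipitate reflects whatever the antibody bound without added Ets-1. The third is an input library of chromatin without precipitation, for which the labels do not state a virus. All cells were grown in 25 mM glucose and crosslinked with 1% formaldehyde for 10 min. The Ets-1 virus library holds 1938473 reads, the control virus library 1775757 and the input 3937473. Each group holds 1 library of 1 cell line, so differences could not be checked against replicates and no p-value was computed. Intervals are exact Clopper-Pearson intervals at the 95% level. They cover counting error only, since PCR copies cannot be told from separate molecules in reads that carry no molecular identifier.

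Ets-1 belongs to the ETS family of transcription factors, which bind DNA words built around a GGAA core. Many housekeeping promoters are CpG islands, stretches that are rich in G, C and CpG and lack DNA methylation, and ETS words with a CpG before the core are common in them. Open promoter chromatin also shears and precipitates more readily than closed chromatin, so a control precipitate and an input are read beside any ChIP library. Min6 cells are known for the β-cell genes Ins1, Ins2, Mafa, Pdx1, Nkx6-1, Neurod1 and Slc2a2. None of these is among the members, and ChIP reads do not measure expression.

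The sequences below show what the members look like. The first 5 are 30-base sites around an ETS word in members that hold one, each read on the strand that carries the word, with the word in capitals.

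Mapkap1, chr2:34406831-34406860, minus strand: taccccgcgtaCCGGAAGTccccgatctgc
Ccnt1, chr15:98567798-98567827, minus strand: gaggggtcattCCGGAAGTcggcgctggaa
Chn2, chr6:54039940-54039969, plus strand: atctggcggagCAGGAAGTacaggcagagt
Nop9, chr14:55746646-55746675, plus strand: gcaggagtggtCAGGAAGTtccgaagccag
Mrpl27, chr11:94654933-94654962, plus strand: gtgggtgaagcCAGGAAGTgcatgcctgta

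The other 3 are the 200 bases at the summit of strongly read members, on the strand of the gene, with bases of a coding exon in capitals. They are shown because the summits of the most read members fell in coding exons and introns as well as at start sites. All coordinates and sequences are those of GRCm38.p6 (mm10).

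Tyr, chr7:87492472-87492671, minus strand: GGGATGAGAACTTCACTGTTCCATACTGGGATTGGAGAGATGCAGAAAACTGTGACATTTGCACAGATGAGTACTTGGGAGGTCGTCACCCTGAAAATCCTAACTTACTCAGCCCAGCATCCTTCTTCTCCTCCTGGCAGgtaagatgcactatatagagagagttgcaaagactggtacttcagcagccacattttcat
Fgf5, chr5:98254627-98254826, plus strand: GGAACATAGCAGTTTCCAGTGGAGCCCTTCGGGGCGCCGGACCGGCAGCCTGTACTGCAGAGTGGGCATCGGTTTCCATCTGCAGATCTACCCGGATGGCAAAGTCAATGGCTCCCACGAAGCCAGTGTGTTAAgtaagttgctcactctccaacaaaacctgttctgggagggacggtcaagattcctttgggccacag
Zfp280d, chr9:72306591-72306790, plus strand: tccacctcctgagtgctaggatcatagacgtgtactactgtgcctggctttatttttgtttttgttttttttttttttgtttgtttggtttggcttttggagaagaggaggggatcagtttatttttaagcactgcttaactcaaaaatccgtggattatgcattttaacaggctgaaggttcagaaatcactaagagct

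The Tyr window runs across the end of a coding exon into the intron, with 140 coding bases and 1 CpG. The Fgf5 window does the same, with 134 coding bases and 8 CpG. The Zfp280d window is intronic, has 2 CpG and a GC content of 37.5%, and carries a long run of T.

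Nearly all members were thinly read. Summed over the 916 regions, there were 361 Ets-1 virus reads, 5828 control virus reads and 357 input reads. The control virus read number was 5 or 6 in 736 members (80.3%), 7 to 9 in 147 (16.0%) and 10 or more in 33 (3.60%). No Ets-1 virus read lay in 702 members, 1 read in 67 and 2 reads in 147. No input read lay in 689 members, and 530 members had no read in either the Ets-1 virus library or the input. Control virus read numbers were even in 602 members (65.7%), as they would be where both mates of a pair were counted, so a region of 6 reads may rest on 3 fragments.

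Every member lay in a peak of the authors' deposited control virus list, beside 63.0% of all promoter regions. The fold enrichment of that peak had a median of 2.81 in members and ran between 1.82 and 19.4. Its q-value was at most 0.05 for 167 members (18.2%), beside 0.582% of all promoter regions. A peak of the Ets-1 virus list overlapped 74 members (8.08%), beside 43.6% of all promoter regions. The fold of those Ets-1 virus peaks in members lay between 1.82 and 1.86. These overlaps follow largely from the read limits of the rule. The threshold cut through a dense part of the distribution. Just inside it, Gm25253 and Gm9553 had 0 Ets-1 virus, 5 control virus and 0 input reads. Just outside, Gm37483, Gm38076 and Rrs1 had 0 Ets-1 virus, 4 control virus and 0 input reads. There were 2623 promoter regions with 4 control virus reads under the same limits on the other libraries, more than the members themselves. A further 29 regions missed the rule by having 3 Ets-1 virus reads and 1 by having 5 input reads.

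The most read member lay in Tyr, the gene of tyrosinase, the rate-limiting enzyme of melanin synthesis. The region chr7:87492325-87492781 held 2 Ets-1 virus reads (1.03 RPM, reads scaled to the library total), 142 control virus reads (80.0 RPM) and 4 input reads (1.02 RPM). It was high in the control virus library and low in both others, with an Ets-1 to control virus ratio of RPM of 0.0129 (interval 0.000322 to 0.0742, computed on fragments). Its reads made up 2.44% of all control virus reads in the members. In the authors' deposited control virus list it had a fold of 19.4 and a −log10 q-value of 38.1, and the next most read member had 22 reads. A neighbouring Tyr region, chr7:87492972-87493337, held 2 Ets-1 virus reads, 20 control virus reads and 4 input reads, with a ratio of 0.0916 (0.00211 to 0.644). Summits of both lay in coding sequence of the first exon, 611 bp downstream of the start site for the nearest edge of the first region and 55 bp for that of the second.

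**Figure D1:**
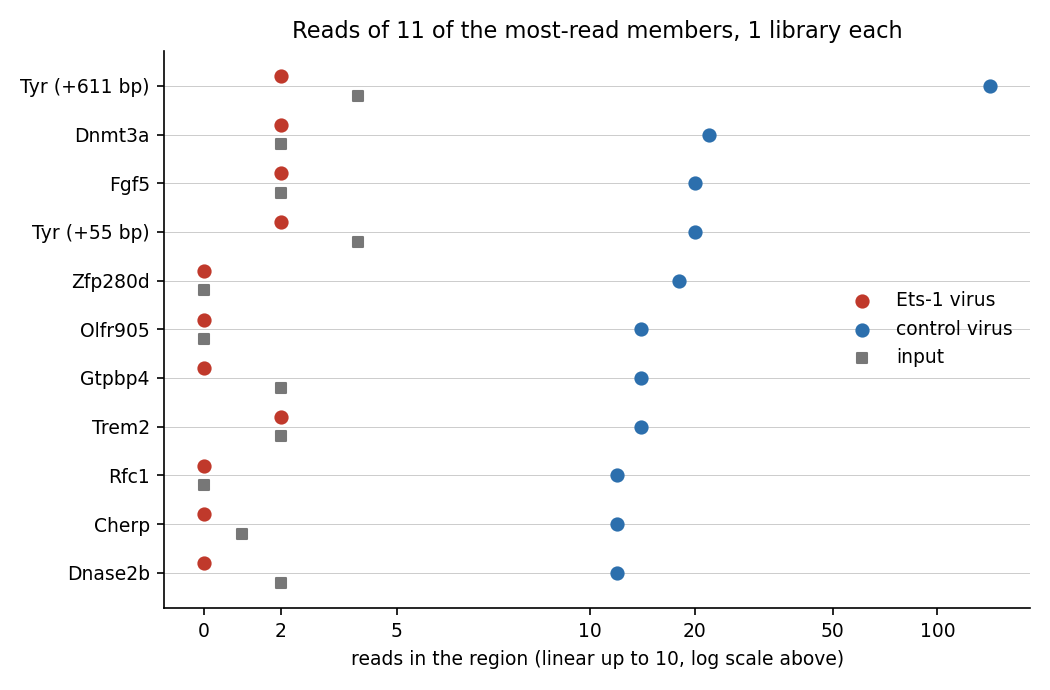
Reads per region (x axis, linear up to 10 and logarithmic above) of 11 of the members with the most control virus reads, with red points for Ets-1 virus reads, blue points for control virus reads and grey squares for input reads. Control virus points lie between 12 and 142 reads, and Ets-1 virus points lie at 0 or 2, as the rule requires.

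Dnmt3a and Fgf5 followed. Dnmt3a, a de novo DNA methyltransferase, had 2 Ets-1 virus reads, 22 control virus reads and 2 input reads at chr12:3907459-3907875, a ratio of 0.0833 (0.00193 to 0.573). Fgf5, a growth factor known for ending the growth phase of the hair cycle, had 2 Ets-1 virus reads, 20 control virus reads and 2 input reads at chr5:98254468-98254901, a ratio of 0.0916 (0.00211 to 0.644). Both summits lay in coding exons.

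Members with no Ets-1 virus read were set against a floor of 6 reads (3 fragments) in that library. Folds at this floor have no interval and leave out counting error in the control virus reads. Zfp280d, a zinc finger gene, had 0 Ets-1 virus, 18 control virus and 0 input reads, 3.27-fold lower with the Ets-1 virus at the floor. Olfr905, an olfactory receptor gene, had 0 Ets-1 virus, 14 control virus and 0 input reads, 2.55-fold lower at the floor. Gtpbp4, whose GTPase acts in ribosome assembly, had 0 Ets-1 virus, 14 control virus and 2 input reads, with the same value of 2.55-fold. These 3 regions were high in the control virus library alone, and the Gtpbp4 region lay outside genes, at -1793 bp from the start site.

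Trem2, a receptor of microglia and other myeloid cells, had 2 Ets-1 virus, 14 control virus and 2 input reads, and the interval of its ratio of 0.131 reached 1.02. Rfc1, the large subunit of the clamp loader of DNA replication, had 0 Ets-1 virus, 12 control virus and 0 input reads. Cherp, a nuclear RNA-binding protein also tied to calcium release, had 0 Ets-1 virus, 12 control virus and 1 input read. Dnase2b, a DNase of the lens, had 0 Ets-1 virus, 12 control virus and 2 input reads. For Rfc1, Cherp and Dnase2b, the Ets-1 virus library was 2.18-fold lower at the floor. Only 180 of the 916 members had more control virus reads than the floor. For the other 736, no fold at the floor can be given where the Ets-1 virus library had no reads.

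Summits of 4 of these 11 members lay in coding exons, those of Tyr (both), Dnmt3a and Fgf5, a feature noticed after the values were seen. Over all members, 53 summits (5.79%) lay in a coding exon, 131 (14.3%) in another exon, 424 (46.3%) in an intron and 308 (33.6%) outside genes. By the centre of the region, a coding exon held 5 of the 33 members with 10 or more control virus reads (15.2%, interval 5.11% to 31.9%), 6 of 147 with 7 to 9 reads (4.08%) and 41 of 736 with 5 or 6 reads (5.57%). For regions with the opposite read pattern and 10 or more Ets-1 virus reads, it held 9 of 125 (7.20%, 3.35% to 13.2%), and over all promoter regions 2317 of 41743 (5.55%). The interval for the most read members includes the value for all promoter regions. Without the promoter term, 11 of 364 regions with 10 or more control virus reads (3.02%, 1.52% to 5.34%) and 16 of 612 with 10 or more Ets-1 virus reads (2.61%, 1.502% to 4.21%) had their centre in a coding exon, beside 1.24% of all listed regions. Both intervals lie above that value, but the comparison is no independent support. The 5 and the 11 control virus regions both include the 4 members that raised the question. Promoter regions, which are more often coding, made up 33 of the 364, 125 of the 612 and 41743 of the 542768 listed regions, so the sets also differ in class.

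All listed regions within these genes were then split at the 5 control virus reads of the rule. For Tyr, Dnmt3a and Fgf5, those with at least 5 reads include the members already noted as coding. The split is thus description and lends no support to a link between reads and coding exons. In Tyr, both regions with at least 5 control virus reads were coding, against 0 of the 29 with fewer. In Dnmt3a, 2 of 4 such regions were coding, against 0 of the 8 with fewer, and in Fgf5 1 of 1, against 0 of 4. In Zfp280d, 0 of 2 regions with at least 5 control virus reads were coding, against 1 of the 21 with fewer, and in Cherp 0 of 1, against 2 of the 5 with fewer. No listed region was coding in Olfr905, Gtpbp4, Trem2, Rfc1 and Dnase2b. In Dnmt3a a region at chr12:3896500-3896870 held 22 Ets-1 virus reads, 47 control virus reads and 18 input reads, and was excluded by the rule. It was high in all 3 libraries, unlike the Dnmt3a member. Also excluded were a Dnmt3a region annotated as 3′UTR, with 3 Ets-1 virus, 22 control virus and 4 input reads, and a promoter region with 8, 15 and 6. Neither was coding. The source of these reads was not tested.

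The members were then set beside other classes of annotation and beside the 1359 promoter regions with the opposite pattern (at least 5 Ets-1 virus reads, at most 2 control virus reads and at most 4 input reads). The rule took 2.19% of promoter regions (2.06% to 2.34%), and the opposite rule took 3.26% (3.09% to 3.43%). Without the promoter term, the rule took 10450 of all listed regions (1.93%) and the opposite rule 10284 (1.89%). For the rule, the share was 2.26% in exons, 2.25% in 3′UTR, 1.96% in introns and 1.84% in distal intergenic regions. For the opposite rule it was 1.99% in exons, 2.04% in 3′UTR, 1.83% in introns and 1.73% in distal intergenic regions. For the rule, the interval of the promoter share lay above those of introns (1.89% to 2.02%) and distal intergenic regions (1.79% to 1.89%) and overlapped that of exons (2.02% to 2.52%). For the opposite rule, it lay above those of exons, introns and distal intergenic regions. In 5′UTR, with 504 regions, the rule took 2.78% (1.53% to 4.62%) and the opposite rule 2.98% (1.68% to 4.86%), and these intervals include the promoter shares.

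**Figure D2:**
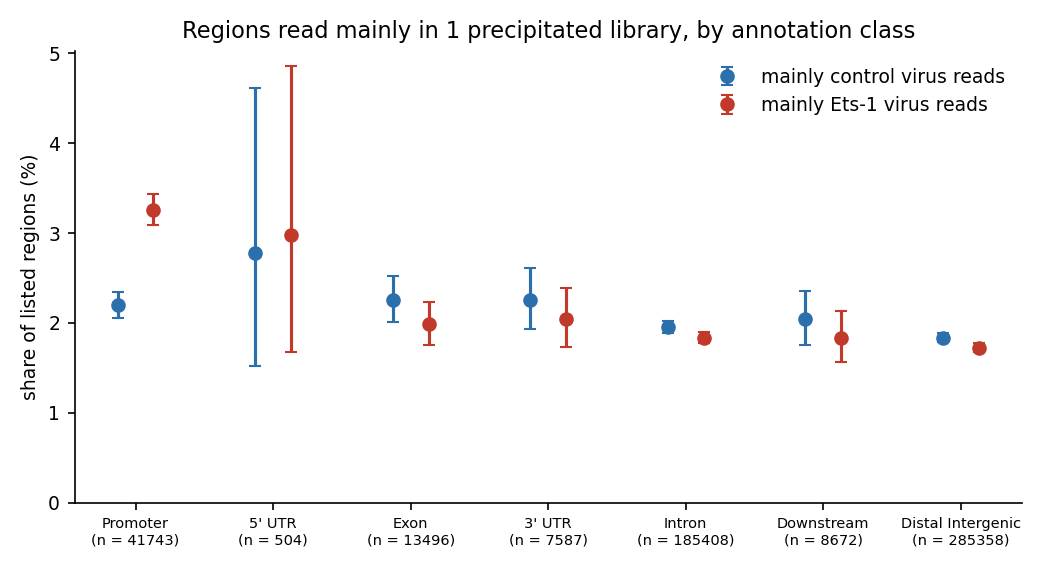
Share of listed regions (y axis, %) that met the rule (mainly control virus reads) or the opposite rule (mainly Ets-1 virus reads) by annotation class, with exact 95% intervals for counting error. In promoters 2.19% met the rule and 3.26% the opposite rule, and in distal intergenic regions the shares were 1.84% and 1.73%.

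By position, the members resembled promoter regions as a whole. A region within 1 kb of the start site made up 73.5% of members, 82.0% of the opposite set and 73.5% of all promoter regions. The region held the start site itself in 18.8% of members (16.3% to 21.5%), 33.3% of the opposite set (30.8% to 35.9%) and 12.4% of all promoter regions. Regions differed in width, which sets how often one can hold a start site or a word, and the medians were 456 bp in members, 382 bp in the opposite set and 249 bp in all promoter regions. Members lay upstream of the start site in 53.6% of cases and downstream in 27.6%. Repeat-masked sequence made up over 50% of the region in 19.98% of members, 15.2% of the opposite set and 18.04% of all promoter regions.

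Base composition was measured in 300-base windows at the summit, which removes the difference in width. The summit was that of the control virus peak in members and of the Ets-1 virus peak, where listed, in the opposite set. In all other promoter regions it was the first summit of the comparison table, so the sets differ in this choice. Median GC was 43.0% in members (42.3% to 44.0%), 48.0% in the opposite set (47.0% to 49.0%) and 43.7% in all promoter regions. CpG per 100 bases had a median of 0.667 in members, 1.33 in the opposite set and 0.667 in all promoter regions. A window was called CpG-dense at a GC content of at least 50% and an observed to expected CpG ratio of at least 0.6. This held for 76 members (8.30%, 6.59% to 10.3%), 30.1% of the opposite set (27.7% to 32.6%) and 5.53% of all promoter regions. The members lay above all promoter regions and below the opposite set, with intervals that include neither value. In members without Ets-1 virus reads, the share was 5.85% (4.06% to 8.12%) at 5 or 6 control virus reads. It was 4.63% (1.52% to 10.5%) at 7 or 8 and 6.67% (0.818% to 22.1%) at 9 or more. Each of these intervals includes the 5.53% of all promoter regions. The higher share over all members was thus not seen in these classes. They held 33, 5 and 2 of the 76 CpG-dense members, and the rest of the 76 had 1 or 2 Ets-1 virus reads.

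**Figure D3:**
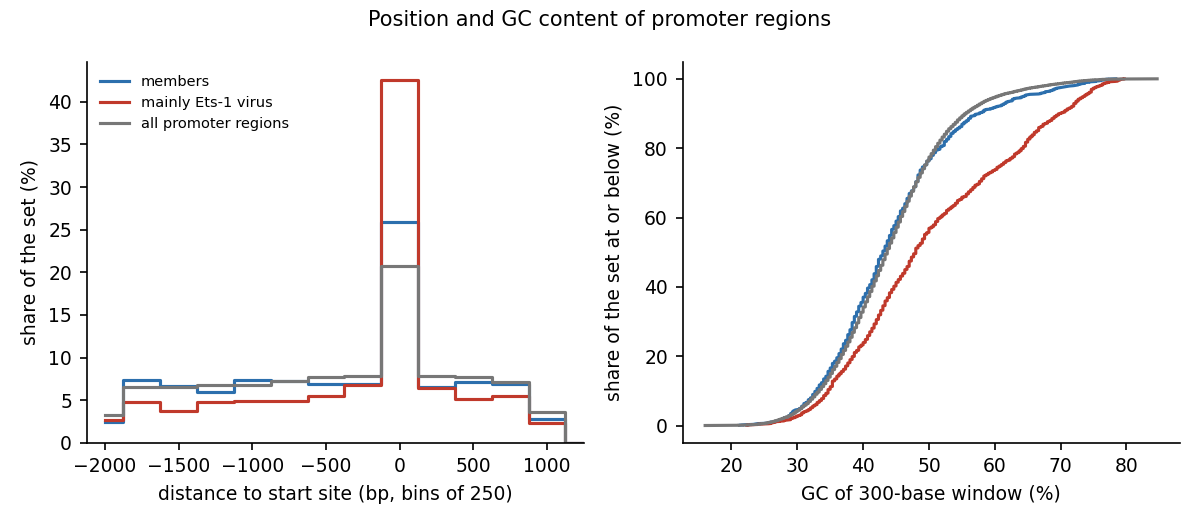
Left, share of each set (y axis, %) by distance to the start site (x axis, bp, bins of 250). Right, share of each set at or below a given GC content of the 300-base window. Members and all promoter regions run close together, with median GC of 43.0% and 43.7%, and the regions read mainly with the Ets-1 virus peak at the start site and reach a median of 48.0%.

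Because single regions rest on few reads, composition was also followed along the read number, in promoter regions with no read in the other precipitated library. Classes from 5 reads upward hold members or the opposite set, so their choice of summit differs from that of the lower classes. With control virus reads alone, median GC was 43.3% at 1 or 2 reads, 43.0% at 3 or 4, 43.0% at 5 or 6, 41.7% at 7 or 8 and 41.3% at 9 or more. CpG-dense windows made up 3.08%, 4.59%, 5.85%, 4.63% and 6.67% of these classes, which hold 17543, 2921, 564, 108 and 30 regions. The interval at 1 or 2 reads (2.83% to 3.35%) lies below those at 3 or 4 (3.86% to 5.41%) and at 5 or 6 (4.06% to 8.12%). The intervals of the last 3 classes overlap, and no change from 5 reads upward was detectable at this depth.

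With Ets-1 virus reads alone, median GC was 43.7% at 1 or 2 reads, 44.0% at 3 or 4, 46.3% at 5 or 6, 49.7% at 7 or 8 and 49.0% at 9 or more. CpG-dense windows made up 3.34%, 8.91%, 22.9%, 35.1% and 35.8% of classes of 11534, 2347, 703, 191 and 106 regions. Promoter regions with more Ets-1 virus reads were thus more often CpG-dense, up to about 7 reads. The effect of the change in summit between the classes of 3 or 4 and 5 or 6 reads was not tested. Read totals of the precipitated libraries differ, so equal read numbers are not quite equal RPM.

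**Figure D4:**
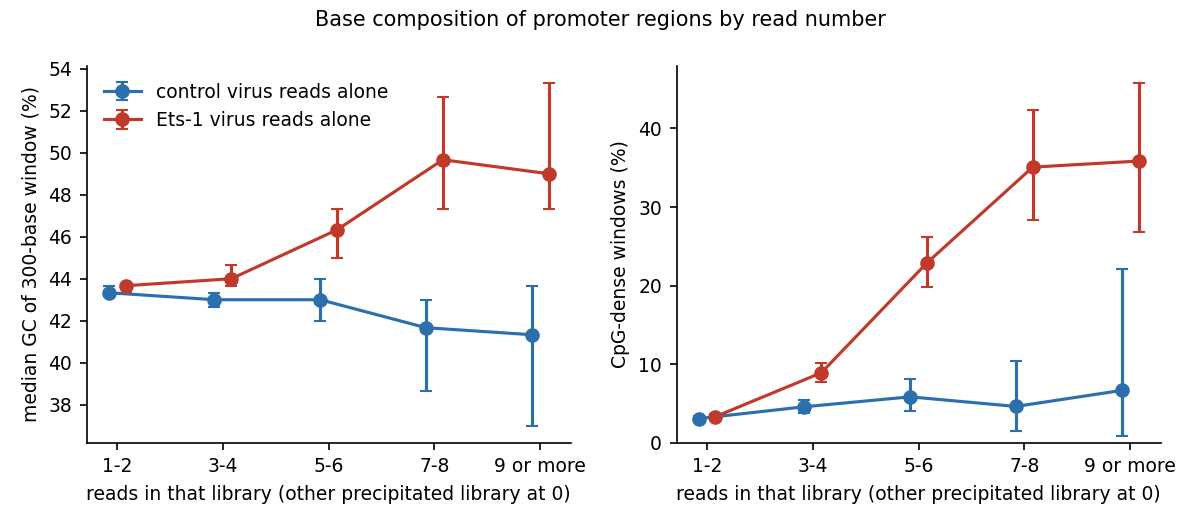
Median GC (left, %) and share of CpG-dense windows (right, %) of promoter regions by reads in 1 precipitated library with the other at 0, with 95% intervals for counting error. The control virus line stays between 41.3% and 43.3% GC and reaches at most 6.67% CpG-dense windows, and the Ets-1 virus line reaches 35.8% CpG-dense windows.

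Promoter words were searched on both strands, with overlaps between different words allowed. The ETS word with a CpG, CCGGAAGT, lay in the 300-base window of 2 members (0.218%, 0.0265% to 0.786%), 37 regions of the opposite set (2.72%, 1.92% to 3.73%) and 0.525% of all promoter regions. The ETS word without a CpG, CAGGAAGT, lay in 24 members (2.62%, 1.69% to 3.87%), 19 regions of the opposite set (1.40%, 0.844% to 2.17%) and 2.19% of all promoter regions. For both words the interval of the members includes the value of all promoter regions.

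Since CCGGAAGT holds a CpG, it was also counted in CpG-dense windows alone. It lay in 2 of 76 such windows of members (2.63%, 0.320% to 9.19%), 32 of 409 of the opposite set (7.82%, 5.41% to 10.9%) and 108 of 2307 of all promoter regions (4.68%). The interval of the members includes the values of both other sets.

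Other words differed in direction between the members and the opposite set. The GC box GGGCGG lay in 7.86% of members, 26.6% of the opposite set and 7.11% of all promoter regions. The cAMP response element TGACGTCA lay in 0.109%, 1.25% and 0.314% of these sets, in the same order, and the NRF1 core GCATGCGC in 0.655%, 1.47% and 0.568%. The TATA word TATAAA lay in 22.7% of members, 15.0% of the opposite set and 22.8% of all promoter regions, and CCAAT in 37.3%, 32.2% and 36.1%. For the NRF1 core and CCAAT, the intervals of the members and the opposite set overlap. A word is a run of letters and not a bound site.

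**Figure D5:**
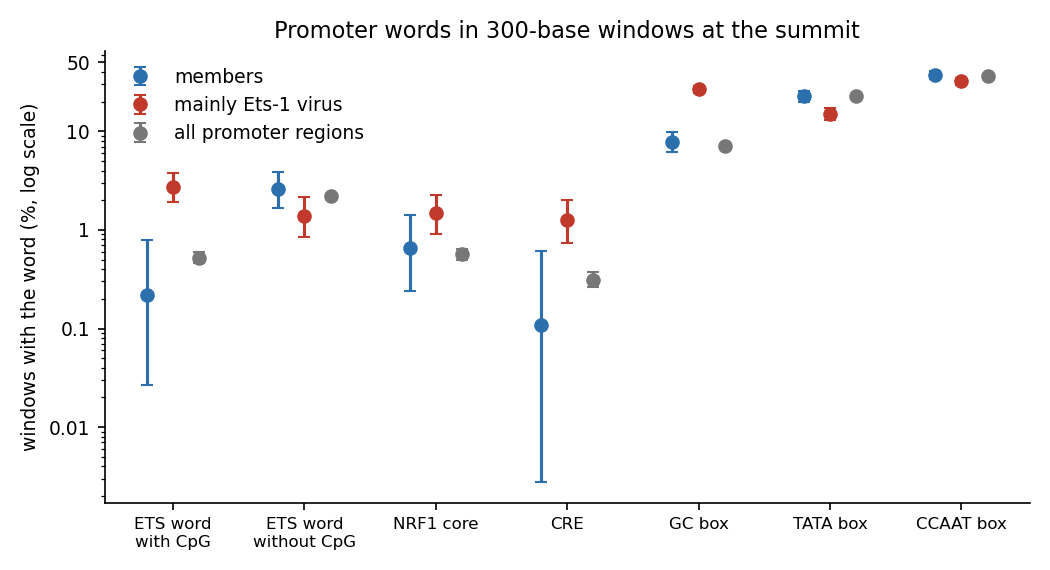
Share of 300-base windows with each word (y axis, %, logarithmic) in members, in regions read mainly with the Ets-1 virus and in all promoter regions, with exact 95% intervals for counting error. The ETS word with a CpG and the GC box are at 0.218% and 7.86% in members against 2.72% and 26.6% in regions read mainly with the Ets-1 virus.

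Over their whole length, 37 members (4.04%) held an ETS word, beside 5.74% of the opposite set and 2.58% of all promoter regions, which are narrower. The word lay a median of 107 bp from the summit, between 3 and 422 bp, and within 100 bp of it in 18 members. Of the 37, 34 held CAGGAAGT and 3 held CCGGAAGT, those of Mapkap1, Ccnt1 and Polr2e.

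Mapkap1, a subunit of the mTORC2 kinase complex, had 0 Ets-1 virus, 8 control virus and 0 input reads, and the word printed above lay 76 bp from the summit of a region that holds the start site. Ccnt1, the cyclin T1 of the elongation factor P-TEFb, had 1 Ets-1 virus, 8 control virus and 0 input reads, with the word 25 bp from the summit. Polr2e, a subunit shared by the nuclear RNA polymerases, had 2 Ets-1 virus, 6 control virus and 0 input reads, with the word 184 bp from the summit, and was named after its values were seen. In these 3 regions the control virus library was the highest.

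Among members with CAGGAAGT, Chn2, a GTPase-activating protein for Rac, had 0 Ets-1 virus, 10 control virus and 0 input reads, and its word lay 18 bp from the summit in a CpG-dense window. Nop9, an RNA-binding factor of ribosome assembly, had 0 Ets-1 virus, 10 control virus and 0 input reads, with the word 117 bp from the summit. Mrpl27, a protein of the mitochondrial ribosome, had 0 Ets-1 virus, 8 control virus and 2 input reads, with the word 121 bp from the summit. Slc45a4, AC126254.3 and Gm31378 had 7 or 8 control virus reads and at most 2 in each of the other libraries.

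The 916 members belong to 894 genes. The sets shared 40 genes, 4.47% of the 894 genes with a member and 3.01% of the 1329 genes of the opposite set. Of all 24551 genes with a listed promoter region, 5.41% had a region of the opposite pattern and 3.64% had a member, so these shares lie near the background. Another promoter region with at least 5 Ets-1 virus reads was listed for the gene of 5.79% of members (4.36% to 7.50%), 4.34% of the opposite set and 4.08% of all promoter regions. At 3 or more Ets-1 virus reads the shares were 13.6%, 12.2% and 13.6%, so members did not differ from all promoter regions at that limit. Among regions of the opposite pattern, those with the most Ets-1 virus reads lay at Rnu2-10 with 25 Ets-1 virus, 2 control virus and 0 input reads, Banf1 with 20 Ets-1 virus, 2 control virus and 2 input reads, and Pisd-ps2 with 17 Ets-1 virus, 0 control virus and 0 input reads.

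Of the 894 genes, 21 had more than 1 member. Repeats were also seen in the opposite set, whose 1359 regions belong to 1329 genes. The number to be found among all promoter regions was not computed, so the repeats are given as description. Sec11a, a subunit of the signal peptidase, had 3, with 5, 5 and 6 control virus reads and at most 2 in each of the other libraries. Pairs of members were found, among others, for Tyr and Zfp280d, named above, for Lgr4, a receptor for R-spondins, and for Cct2, a subunit of the chaperonin that folds actin and tubulin. Pairs were also found for Snrnp70 of the U1 spliceosomal particle, Dock2, Cluh, Auts2, Ankhd1, Mtcl1, Mia3, Nbeal1, Ulk4, Wdr17, Gnl2, Bcas3os2, Vmn2r-ps9, 4930592C13Rik and Gm48612. One Lgr4 region held 0 Ets-1 virus, 9 control virus and 0 input reads and the other 0 Ets-1 virus, 6 control virus and 2 input reads. They began at chr2:109998860 and chr2:109916287, and each lay over 1 kb from a different start site of the gene. Members of a pair thus need not share a start site.

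By gene group, β-cell genes were missing from the members. None of the 15 β-cell identity genes with a listed promoter region had a member, beside 2 with a region of the opposite pattern. The same held for 17 genes of glucose sensing and exocytosis (0 with a member, 3 with the opposite pattern), 14 of oxidative and unfolded protein stress (0 and 4), 40 of the respiratory chain and ATP synthase (0 and 6) and 15 ETS factors (0 and 0). Over all 24551 genes with a listed promoter region, 3.64% had a member and 5.41% a region of the opposite pattern. Against that background, lists of 14 to 40 genes without a member are not a result about these genes.

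Signalling and growth genes held single members, beside 3.64% of all genes. Of 21 genes of insulin signalling and FoxO, 1 had a member (4.76%), Grb10, an adaptor that restrains insulin receptor signalling, with 0 Ets-1 virus, 5 control virus and 0 input reads, and 7 had a region of the opposite pattern. Of 19 genes of DNA replication and repair, 1 had a member (5.26%), Rfc1, and 3 the opposite pattern. Of 35 cytosolic ribosomal protein genes, 1 had a member (2.86%) and 5 the opposite pattern, and the member, Rpl32l, is a processed pseudogene. Of 33 mitochondrial ribosomal protein genes, 3 (9.09%) had a member (Mrpl27, Mrpl10 and Mrpl16, with 5 to 8 control virus reads) and 5 the opposite pattern.

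Pigment and developmental genes foreign to β cells had members for 4 of 18 genes (22.2%) and the opposite pattern for 1. The list had been written with results for Tyr and Fgf5 known, so its share is no independent value. The other members in it were Mitf, the master factor of melanocytes, with 0 Ets-1 virus, 6 control virus and 0 input reads, and Alb, serum albumin, with 0 Ets-1 virus, 5 control virus and 0 input reads. Markers of acinar, endothelial, immune and fibroblast cells had 0 members among 12 genes, beside 1 with the opposite pattern.

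Large gene families were represented as follows, beside 3.64% of all genes. A gene with more listed promoter regions has more chances to hold a member. Shares by family were not adjusted for this and are given without intervals, so no excess is read from them. Olfactory receptors, silent outside the nose in most tissues, had a member for 33 of 1025 genes (3.22%), beside 34 (3.32%) with the opposite pattern. After Olfr905, the most read were Olfr1100 and Olfr122, each with 0 Ets-1 virus, 8 control virus and 0 input reads, and Olfr1229 with 0 Ets-1 virus, 8 control virus and 2 input reads. Vomeronasal receptors had a member for 3 of 216 genes (1.39%), led by Vmn2r100 with 0 Ets-1 virus, 10 control virus and 0 input reads.

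Zfp zinc finger genes had a member for 15 of 208 genes (7.21%), beside 10 (4.81%) with the opposite pattern, and after Zfp280d the most read was Zfp143, a factor of snRNA and protein-coding promoters, with 0 Ets-1 virus, 9 control virus and 1 input read in a CpG-dense window. Solute carrier names had a member for 16 of 218 genes (7.34%), beside 18 (8.26%), and the list also takes the antisense gene Slc36a3os. The neighbours Slc22a8 and Slc22a6, organic anion transporters of the kidney, had 0 Ets-1 virus, 11 control virus and 2 input reads and 0 Ets-1 virus, 10 control virus and 0 input reads. Defensins, keratins and keratin-associated proteins had a member for 6 of 106 genes (5.66%), beside 1 (0.943%), with Krtap6-5, a hair protein gene, at 0 Ets-1 virus, 10 control virus and 0 input reads.

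MicroRNA genes had a member for 10 of 346 (2.89%), beside 9 (2.60%), led by Mir674 with 0 Ets-1 virus, 7 control virus and 0 input reads. Histone cluster genes had 1 of 25 (Hist1h1b) and Hox genes 1 of 16 (Hoxa10), each beside 1 with the opposite pattern. By biotype, 59.2% of members were assigned to protein-coding genes, beside 66.8% of the opposite set and 55.2% of all promoter regions. Processed pseudogenes made up 13.2% of members, 8.83% of the opposite set and 14.8% of all promoter regions.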

How the data were processed

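ChIP-seq libraries of Min6 cells (Ets-1 virus, control virus and input, 1 each) were analysed from 2 deposited peak lists and 1 deposited comparison table. FastQC, Trimmomatic, BWA 0.7.12 and MACS2 2.1.0 with build mm10 are named in the submitters' processing notes. Which settings were used, and if peaks were called against the input, is not given in the sources used here. Per the file headers, the deposited comparison table holds a read count for each region and library, and RPM, which the values show to be the count plus 1 scaled to the library total. Each deposited peak has a ratio (fold enrichment) and −log10 values of p-value and q-value, used here only to describe and filter peaks within a list. Annotation classes are the deposited ones, and no deposited fold or call column chose a region.

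Totals per library follow from count and RPM together, and RPM was recomputed without the added read. Ratios have exact conditional binomial intervals on fragments (2 reads each). Where the Ets-1 virus library had 0 reads, a floor of 6 reads (3 fragments) was used in place of the planned 3 reads, because mates appear to be counted singly. Genes came from deposited symbols (549 members) or, by identifier, GENCODE M21 (367 members). Deposited transcript coordinates were those of GENCODE M21 for 99.0% of the 41714 promoter regions whose transcript it holds. Sequence was read from RefSeq's GRCm38.p6, where lower case marks repeats. Word, composition and interval functions were tested on simulated data.

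The members and the 19 gene lists were chosen with earlier results of these data known. CpG density, read classes, words other than ETS words and coding exons were chosen after seeing the data. Named genes were the 12 most read members without predicted genes, up to 6 members of each list, the 8 most read members with an ETS word, genes with more than 1 member, 3 regions on each side of the threshold and the 3 most read regions of the opposite pattern, of which examples are given. Some items that this rule selects are not reported here. With 1 library in each group, no test was run. Alternatives changed the read limits, distance bins, gene filter, word, window and overlap. The scripts used pandas 2.3.3, scipy 1.17.1, numpy 2.4.6 and matplotlib 3.10.9 under Python 3.11.15.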

Additional observations from a re-analysis of the deposited data

How the results depend on the processing

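Of 53 alternatives tried, 38 left their value within its interval or, for the number of members, within 1.5 times, and 15 moved it. A minimum of 8 control virus reads left 135 members, 38.5% of them in a control virus peak with a q-value of at most 0.05. A minimum of 10 reads left 33 members, with 60.6% in such a peak, 81.8% within 1 kb of a start site, 6.06% with an ETS word and a median GC of 41.1%. In the nearest promoter bin alone, 15.2% were mostly repeat-masked. Without predicted genes, 595 members remained, with a median GC of 44.1%, 16.3% mostly repeat-masked and 7.73% with another promoter region of the gene read with the Ets-1 virus. With all 916 members and a limit of 3 or more Ets-1 virus reads, the share with another such promoter region was 13.6%. It was also 13.6% for all promoter regions. The share with an ETS word was 0.328% for CCGGAAGT alone and 2.07% in 200 bp at the summit. Stricter rules leave fewer members, and a single word or a narrower window finds fewer words, by construction. A limit of 3 Ets-1 virus reads likewise can only raise the share with another such promoter region. The q-values rest on the control virus reads that a higher minimum selects, so their rise is no separate result. For the other changes the cause was not tested. No paired analysis was possible because no group has a second library. Depth limits single regions, since 80.3% of members rest on 5 or 6 control virus reads.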

Other observations

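Members were rare on chromosome X. There, 12 of 1976 promoter regions were members (0.607%, 0.314% to 1.06%), against 904 of 39767 on autosomes (2.27%, 2.13% to 2.42%). The opposite pattern showed the same order, at 1.52% of promoter regions on chromosome X and 3.34% on autosomes. Over all listed regions, a count of at least 5 Ets-1 virus reads was found in 0.891% on chromosome X and 2.16% on autosomes. At least 5 control virus reads were found in 0.931% on chromosome X and 2.20% on autosomes, and at least 5 input reads in 0.0188% and 0.0401%. The input share on chromosome X rests on 6 regions, and its interval (0.0069% to 0.0409%) includes the autosomal value. The copy number of chromosome X in these cells was not tested.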
